A study of Mus musculus with 208 samples.

Results

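The 9 heat shock and chaperone genes described here were followed in neuronal nuclei of 4 mouse brain regions: Hspa1a, Hspa1b, Hsph1, Dnajb1, Hspa5, Hspa8, Hsp90aa1, Hsp90b1 and Hspb1. They were taken by symbol, and they are 9 of the 46403 genes listed in the count table of each region. All mice were wild-type C57BL/6NTac. Dams carried a minipump releasing saline or 10 mg/kg/day of morphine, and their pups, fostered by drug-naive dams, were then injected with saline or morphine (10 mg/kg) on postnatal days 1 to 14. The offspring were injected as adults with saline or with lipopolysaccharide (LPS, a bacterial cell wall component that triggers an innate immune response), and tissue was punched out 2 h later. The 4 groups carry the perinatal exposure first and the adult challenge second: SAL-SAL and SAL-LPS after saline, MOR-SAL and MOR-LPS after morphine. In that order, nuclei positive for the neuronal protein NeuN were sorted for 11, 12, 14 and 14 libraries of hypothalamus, 13, 14, 12 and 16 of hippocampus, 10, 10, 12 and 16 of prefrontal cortex and 13, 15, 8 and 18 of striatum. The polyadenylated RNA of these nuclei was sequenced, so the levels describe transcripts in neuronal nuclei and not in whole cells, and fewer nuclei of a neuron type cannot be told apart from less RNA per nucleus. By their replicate labels, which the study's sample sheet defines as litter and individual, the 208 libraries came from 71 animals of 18 litters, of which 8 had been exposed to saline and 10 to morphine. All but 1 litter gave animals of a single sex.

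Chaperones bind unfolded or newly made proteins and keep them from aggregating. In the cytosol and nucleus, HSP70 proteins (Hspa8, made constitutively, and the stress-inducible Hspa1a and Hspa1b) bind clients in a cycle that is started by HSP40 co-chaperones such as Dnajb1 and reset by the HSP110 protein Hsph1, and clients such as steroid receptors pass on to HSP90 (Hsp90aa1). Hspb1 is a small heat shock protein that holds unfolding proteins without using ATP. Hspa5 (BiP) and Hsp90b1 (GRP94) do the corresponding work in the endoplasmic reticulum (ER). The cytosolic genes are switched on by heat shock factor 1 through heat shock elements, and the ER genes by the unfolded protein response through ER stress elements.

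For 7 of the 9 genes, RefSeq promoters (GRCm38.p6, 300 bases each) were at hand. The heat shock element, searched on both strands as GAANNTTC or TTCNNGAA, was found in 4 of the 7. The ER stress element was found in 2. It was searched on both strands as CCAAT, 9 bases of any kind and CCACG, with exact matches only. Of 32851 promoter windows of the same length, 15.1% held the heat shock element and 0.119% the ER stress element. The bases before the start site are shown for 5 genes: the near-identical pair of Hspa1a and Hspa1b, Hsph1, which came nearest to a call after LPS among the well-detected members, and both ER chaperones. Each run covers 250 bases and ends at the base before the start site, written 5′ to 3′ in the direction of transcription, and capitals mark the motif.
Hspa1a, chr17:34972157-34972406, minus strand: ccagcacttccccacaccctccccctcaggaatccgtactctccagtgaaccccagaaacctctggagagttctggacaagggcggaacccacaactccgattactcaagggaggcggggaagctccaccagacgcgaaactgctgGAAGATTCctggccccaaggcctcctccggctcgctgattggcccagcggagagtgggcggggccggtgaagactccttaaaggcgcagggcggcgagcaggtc
Hspa1b, chr17:34959239-34959488, minus strand: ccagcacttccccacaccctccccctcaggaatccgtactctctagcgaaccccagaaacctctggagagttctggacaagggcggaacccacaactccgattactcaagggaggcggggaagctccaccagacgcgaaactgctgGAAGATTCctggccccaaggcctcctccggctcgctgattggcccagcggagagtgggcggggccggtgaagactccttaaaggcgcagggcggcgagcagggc
Hsph1, chr5:149636337-149636586, minus strand: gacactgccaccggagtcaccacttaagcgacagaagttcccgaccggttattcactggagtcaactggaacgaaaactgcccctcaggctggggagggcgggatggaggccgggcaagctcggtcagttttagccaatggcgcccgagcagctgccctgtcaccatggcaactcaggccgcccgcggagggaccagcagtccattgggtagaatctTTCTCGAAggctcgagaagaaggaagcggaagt
Hspa5, chr2:34771840-34772089, plus strand: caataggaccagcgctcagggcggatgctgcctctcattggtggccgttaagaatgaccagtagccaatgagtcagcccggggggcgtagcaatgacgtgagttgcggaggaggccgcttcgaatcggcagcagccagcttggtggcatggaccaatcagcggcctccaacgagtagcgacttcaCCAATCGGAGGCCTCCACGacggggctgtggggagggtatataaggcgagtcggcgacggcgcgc
Hsp90b1, chr10:86705445-86705694, minus strand: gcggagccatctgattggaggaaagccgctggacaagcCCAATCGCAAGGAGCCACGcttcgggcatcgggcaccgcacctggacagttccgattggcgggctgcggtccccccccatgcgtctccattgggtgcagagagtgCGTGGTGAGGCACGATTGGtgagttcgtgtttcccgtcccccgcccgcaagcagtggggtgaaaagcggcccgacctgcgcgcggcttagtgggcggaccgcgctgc
The Hspa1a and Hspa1b runs matched at 247 of 250 positions, and both held the element 104 bases before the start site. In Hspb1 the element lay 117 and 97 bases before the start. Hsph1 and Dnajb1 have 2 start sites each in RefSeq. The Hsph1 run shown belongs to 1 of them, and the overlapping window of the other held the heat shock element too. Neither motif was found in the 2 Dnajb1 windows, which says only that these letters are not there.

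Shared sequence limits how far some of these genes can be told apart. Of all 150-base windows of the transcript, 39.7% in Hspa1a and 40.5% in Hspa1b also occurred in the partner gene or in Hspa1l. The share was 55.4% for Hspa8, 36.2% for Hsp90aa1 and 36.6% for Hspb1, each shared with pseudogenes, and 0% for Hsph1, Dnajb1, Hspa5 and Hsp90b1. Only uniquely mapped reads were counted, so the counts of the genes with shared windows are uncertain. Hspa1a (GRCm38 chromosome 17, 34969190 to 34972156, minus strand, 1 exon) overlaps exons of Gm20481 on the opposite strand, and Hsp90b1 (chromosome 10, 86690209 to 86705509, minus strand) overlaps exons of 1810014B01Rik. Whether the counting used strand is not given in the sources used here, so reads of these pairs cannot be told apart. On the same strand, Hsp90b1 overlaps exons of Gm15344 and Gm25745, and Hspa8 those of Snord14c, Snord14d and Snord14e. The part of these overlaps in the counts was not tested.

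Total counts ran from 7673 to 92945090 per library, with regional medians of 5543589 in hypothalamus, 9184251 in hippocampus, 9667628.5 in prefrontal cortex and 10849923.5 in striatum. In 8 libraries the total was below 0.5 of the region's median. In 8 libraries the counts of 4 Y-linked genes went against the labelled sex (2 hypothalamic, 4 hippocampal and 2 prefrontal). Of 14506 genes with more than 1000 counts in the hypothalamus, 2124 had no count at all in hippocampus, prefrontal cortex and striatum. All 9 members had counts in every region, but the tables of the regions were made separately. A difference between tables and a difference between regions therefore cannot be told apart, for the members as for other genes. The summed neuron markers had a median of 1895 normalized CPM (counts scaled to the library's size by edgeR's TMM factors) in hypothalamus. Their median was 4918 in hippocampus, 5565 in prefrontal cortex and 4369 in striatum, with each region scaled by itself. The part of this difference in the region tests below was not tested. In hypothalamus the summed astrocyte markers had a median of 31.4 and a highest library of 766.

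The 9 genes fell into 2 tiers of abundance. Hspa8, Hsp90aa1, Hsph1, Hspa5, Hsp90b1 and Dnajb1 were detected in nearly every library, while Hspa1a, Hspa1b and Hspb1 were at or near 0 in many. On a scale of normalized CPM per kilobase of exon, the hypothalamic SAL-SAL medians were 99.5 for Hspa8, 78.0 for Hsp90aa1, 24.8 for Hsph1, 23.6 for Hspa5, 21.7 for Hsp90b1 and 9.13 for Dnajb1. The leading pair overlapped, with libraries from 22.6 to 169 for Hspa8 and from 38.0 to 132 for Hsp90aa1, and so did Hsph1, Hspa5 and Hsp90b1 among themselves. The stress-inducible genes had medians of 0.458 for Hspb1, 0.165 for Hspa1a and 0 for Hspa1b on the same scale. In prefrontal cortex Hsp90aa1 (86.3) had a higher median per kilobase than Hspa8 (66.01), again with overlapping libraries.

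**Figure D1:**
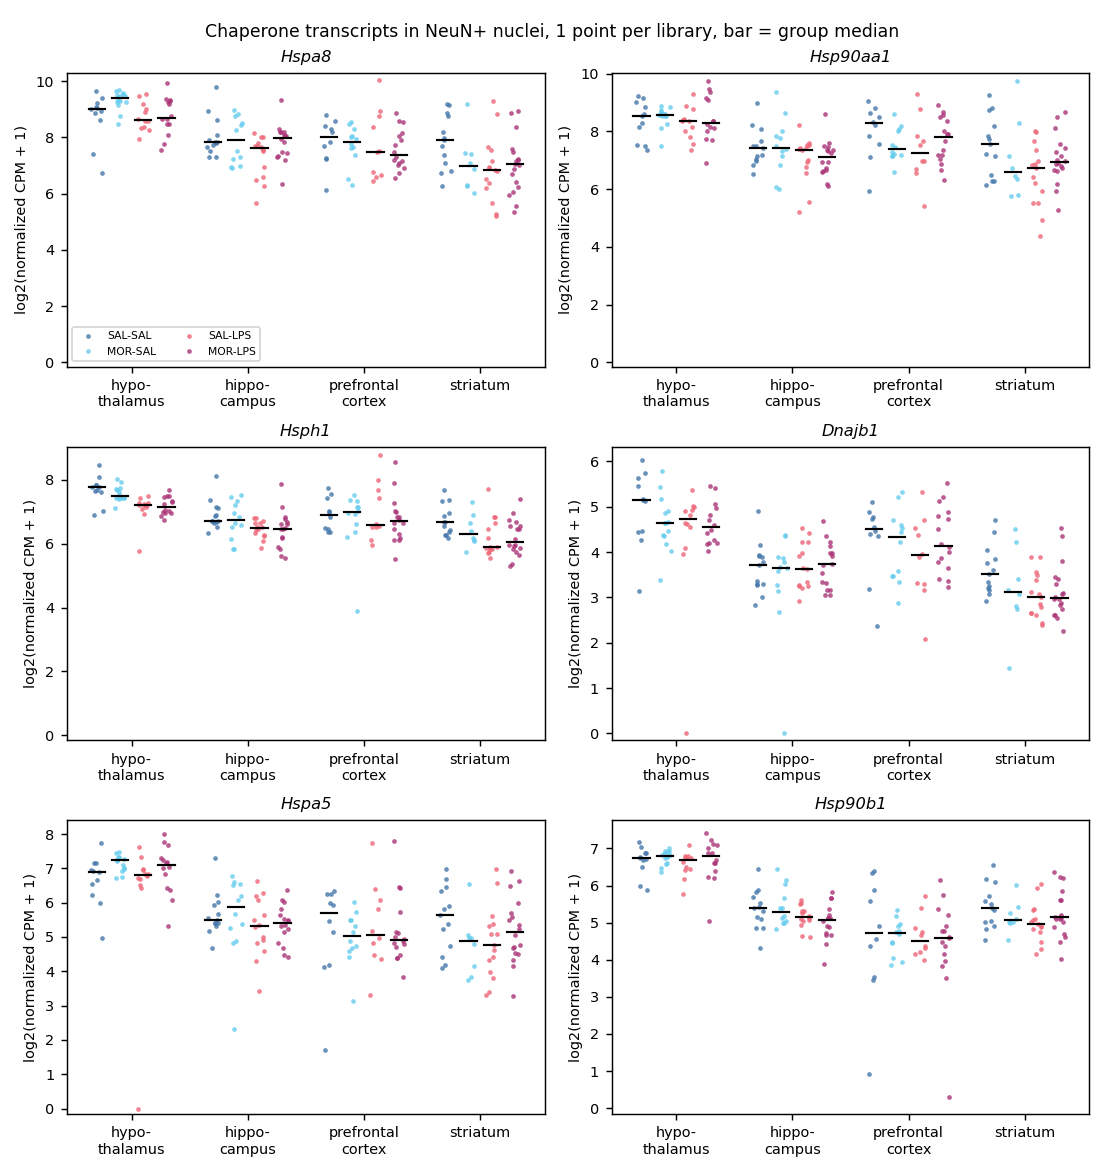
Levels of the 6 detected members, as log2(normalized CPM + 1) on the vertical axis, by region and group, with 1 point per library and a bar at the group median. Over all groups the hypothalamic median is the highest for all 6 genes, on a scale set within each region and not jointly. The groups overlap within every region.

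Region differences were tested in SAL-SAL alone, in 47 libraries of 15 animals scaled together, by edgeR's quasi-likelihood test with p-values adjusted by Benjamini-Hochberg over 21065 genes. Over 6 pairs of regions, 15 of 54 member tests were called at an adjusted p under 0.05, and 9 of these were also called with the animal as a block. A difference between regions cannot be told apart here from one between their separately made tables. Members were called in 4, 2 and 4 tests of the hypothalamus against hippocampus, prefrontal cortex and striatum, where 38.1%, 40.4% and 35.9% of all genes were called. Among the other regions there were 3 for hippocampus against prefrontal cortex, 1 for hippocampus against striatum and 1 for prefrontal cortex against striatum, beside 14.4%, 10.3% and 13.5% of all genes.

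Hsp90b1, the ER HSP90, was highest in hypothalamus. Its jointly normalized CPM (lowest, median and highest library) was 53.1, 87.7 and 123 there, 19.0, 41.9 and 84.1 in hippocampus, 0.965, 28.2 and 89.0 in prefrontal cortex, and 24.1, 44.2 and 97.4 in striatum. The ranges overlapped, but the hypothalamic median exceeded the highest hippocampal library. The log2 difference was 1.00 ± 0.31 (SE) against hippocampus (edgeR adjusted p = 0.00812), 1.13 ± 0.34 against prefrontal cortex (adjusted p = 0.00573) and 0.86 ± 0.31 against striatum (adjusted p = 0.0248), and all 3 stayed called with the animal block. Hspa5, the ER HSP70, had medians of 99.7, 44.8, 55.5 and 52.2 in the same order. By edgeR without the animal block, Hspa5 was called in none of these tests, with the smallest adjusted p against prefrontal cortex (0.0554, and 0.0441 with the block). DESeq2 called Hspa5 higher in hypothalamus than in hippocampus (adjusted p = 0.0343) and prefrontal cortex (adjusted p = 0.0232).

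Dnajb1, which delivers clients to HSP70, was higher in hypothalamus and prefrontal cortex than in the other pair of regions. Its jointly normalized CPM was 7.14, 29.3 and 53.7 (lowest, median and highest) in hypothalamus and 4.38, 23.2 and 36.3 in prefrontal cortex, against 6.16, 12.2 and 28.4 in hippocampus and 7.05, 11.2 and 26.1 in striatum. Hypothalamus exceeded hippocampus by 1.198 ± 0.28 on the log2 scale (adjusted p = 0.000595, blocked 0.00572) and striatum by 1.16 ± 0.28 (adjusted p = 0.000891, blocked 0.00999). The log2 difference was -0.92 ± 0.29 for hippocampus minus prefrontal cortex (adjusted p = 0.0242) and 0.88 ± 0.29 for prefrontal cortex minus striatum (adjusted p = 0.0318), but neither was called with the animal block (adjusted p = 0.149 and 0.151). Hypothalamus and prefrontal cortex differed by 0.28 ± 0.30 (adjusted p = 0.497).

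Hsph1 was higher in hypothalamus (97.1, 180.4 and 324) than in hippocampus (81.2, 106 and 269.6) by 0.55 ± 0.20 and than in striatum (78.1, 109 and 212) by 0.63 ± 0.20 on the log2 scale. The adjusted p was 0.0231 and 0.00913, and with the animal block 0.0991 and 0.0214. Hspa8 and Hsp90aa1, the most abundant members, were called by edgeR in no pair of regions (smallest adjusted p = 0.243 and 0.0745). For hypothalamus minus hippocampus, Hsp90aa1 was called by DESeq2 (adjusted p = 0.0322) and by edgeR with DESeq2 size factors (adjusted p = 0.0404). The medians of Hspa8 lay between 232 and 428 jointly normalized CPM, and those of Hsp90aa1 between 172 and 339. The sparse genes gave the other 6 calls. Hspb1 was called higher in hypothalamus than in hippocampus (adjusted p = 9.06e-05, blocked 0.00153), and lower in hippocampus than in prefrontal cortex (adjusted p = 0.0394, blocked 0.353) and striatum (adjusted p = 0.00550, blocked 0.0695). Hspa1a was called higher in hypothalamus than in prefrontal cortex (adjusted p = 0.000430, blocked 0.00395) and striatum (adjusted p = 0.0146, blocked 0.398), and higher in hippocampus than in prefrontal cortex (adjusted p = 0.0297, blocked 0.0177).

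For the adult LPS challenge, the question was whether chaperone transcripts differed 2 h later, in saline-exposed and in morphine-exposed mice. None of the 9 members was called by edgeR in any region for SAL-LPS against SAL-SAL, beside 0.246% of all genes called in hypothalamus, 2.55% in hippocampus, 0% in prefrontal cortex and 0.0128% in striatum. The same count of 0 was found for MOR-LPS against MOR-SAL, beside 6.27%, 0.467%, 0.0184% and 1.39%. Over all 24 treatment and sex comparisons within regions, 34 of 216 member tests (15.7%) had an unadjusted p under 0.05 by edgeR and 21 by DESeq2, and DESeq2 called 1. Among all genes, between 10.1% and 20.5% had an unadjusted p under 0.05, depending on the comparison.

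**Figure D2:**
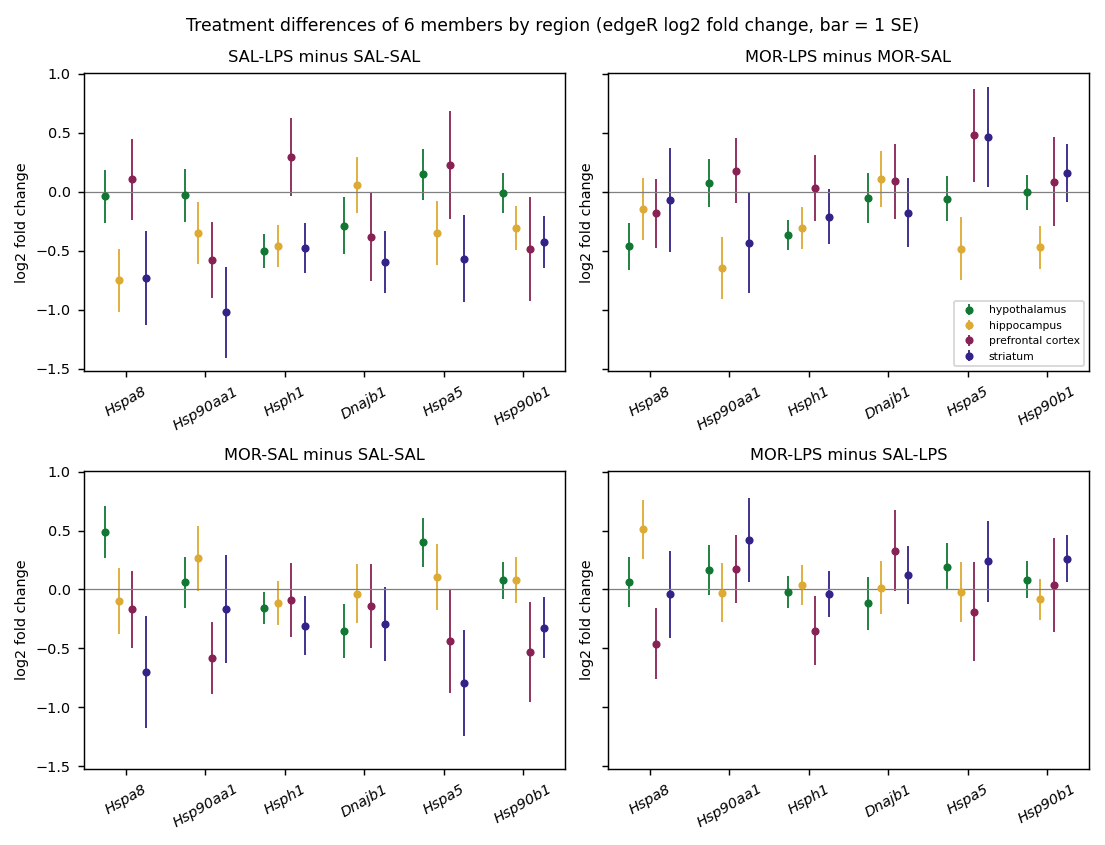
Treatment differences of the 6 detected members in 4 comparisons, with the edgeR log2 fold change on the vertical axis, 1 point per region and a bar of 1 SE. In SAL-LPS against SAL-SAL the Hsph1 points lie at -0.50 in hypothalamus, -0.46 in hippocampus, -0.48 in striatum and 0.29 in prefrontal cortex.

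Hsph1, which resets the HSP70 cycle, came nearest to a call among the detected members. In hypothalamus its normalized CPM (lowest, median and highest) was 119, 216 and 355 in SAL-SAL and 53.9, 148 and 178 in SAL-LPS. The highest SAL-SAL value rests on 82 counts in the library of 160755, and the lowest SAL-LPS value on 1 count in that of 7673. The ranges overlapped, with 12 of 12 SAL-LPS libraries below the SAL-SAL median. The log2 fold change was -0.50 ± 0.14 (SE, edgeR adjusted p = 0.0742), and DESeq2, with -0.51, called it (adjusted p = 0.0206). Without the low-depth libraries the edgeR difference was -0.42 and was not called either. In the morphine-exposed mice the values were 137, 179 and 258 in MOR-SAL and 106, 141 and 205 in MOR-LPS, with 12 of 14 MOR-LPS libraries below the MOR-SAL median. The log2 fold change was -0.37 ± 0.13 (adjusted p = 0.0633), and it was called without the low-depth libraries (-0.36, adjusted p = 0.0272) or without litter 1 or litter 4 (adjusted p = 0.0457 and 0.0431). The difference between the LPS responses was 0.13 ± 0.19 (adjusted p = 0.869).

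Hypothalamic libraries also differed by challenge in markers of neighbouring tissue and of glia, and the part of these markers in the Hsph1 values was not tested. The summed thalamus markers had a median of 381 (133 to 3099) normalized CPM in SAL-SAL and 255 (53.9 to 469.7) in SAL-LPS, with ranges in parentheses. Of these 6 markers, 5 were lower at an unadjusted p under 0.05 and 1 was called. The summed choroid plexus markers were at 30.3 (3.83 to 295) and 6.42 (0 to 19.3) in the same groups, with 3 of 6 lower at an unadjusted p under 0.05 and 1 called. The summed astrocyte markers had a median of 27.0 (14.3 to 47.5) in MOR-SAL and 174 (15.7 to 766) in MOR-LPS, with 4 of 6 called higher. The oligodendrocyte sum was 244 (51.9 to 465) and 398 (146 to 4881), with 4 of 6 called higher, and the microglia sum 19.5 (11.0 to 35.7) and 30.1 (9.06 to 125), with 2 of 6 called higher.

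In the other regions the Hsph1 difference had the same sign in 2 of 3. In hippocampus, its normalized CPM was 80.2, 105 and 276 (lowest, median and highest) in SAL-SAL and 56.8, 88.8 and 112 in SAL-LPS, and 12 of 14 SAL-LPS libraries were below the SAL-SAL median (-0.46 ± 0.18 on the log2 scale, adjusted p = 0.142). In striatum the values were 71.7, 101 and 203 against 46.3, 58.8 and 208 (-0.48 ± 0.21, adjusted p = 0.351). In prefrontal cortex they were 80.9, 119.7 and 213 against 60.9, 95.6 and 442 (0.29 ± 0.33, adjusted p = 0.860), and the highest SAL-LPS library, 1-4, stood far above the next, at 256. When all 4 regions were fitted together with limma-voom and the effects averaged, Hsph1 was at -0.32 ± 0.11 in SAL-LPS against SAL-SAL (adjusted p = 0.131) and -0.24 ± 0.11 in MOR-LPS against MOR-SAL (adjusted p = 0.258). No member was called in any treatment comparison of that fit. The shares of all genes called in it were 1.08% for SAL-LPS minus SAL-SAL, 3.58% for MOR-LPS minus MOR-SAL, 0% for MOR-SAL minus SAL-SAL, 0.846% for MOR-LPS minus SAL-LPS and 0.036% for the difference between the LPS responses.

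Hspa8, the constitutive HSP70, was called in no treatment comparison. In hippocampus its normalized CPM was 156, 229.6 and 877 (lowest, median and highest) in SAL-SAL and 49.5, 194 and 286 in SAL-LPS, with a log2 fold change of -0.75 ± 0.27 (adjusted p = 0.1002). The next highest SAL-SAL library after 877, which was library 1-1, held 489, and without litter 1 the log2 fold change was -0.45 (adjusted p = 0.444). In the hypothalamus of morphine-exposed mice it was 351, 677 and 827 in MOR-SAL and 187, 415 and 972 in MOR-LPS, with 13 of 14 MOR-LPS libraries below the MOR-SAL median (-0.46 ± 0.20, adjusted p = 0.156). In saline-exposed mice the corresponding hypothalamic log2 difference was -0.04 ± 0.23, and the difference between the responses was -0.42 ± 0.30 (adjusted p = 0.569).

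In striatum all 9 members had negative log2 fold changes in SAL-LPS against SAL-SAL, with a median of -0.60, beside 0.0059 over all genes, and 5 of the 9 had an unadjusted p under 0.05, beside 11.7% of all genes. None was called. In the morphine-exposed mice, MOR-LPS against MOR-SAL, 4 members had positive and 5 negative log2 fold changes, with a median of -0.0725 beside 0.108 over all genes, and 0 had an unadjusted p under 0.05. The difference between these 2 responses to LPS was positive for all 9 members, with a median of 0.66 beside 0.122 over all genes; 1 had an unadjusted p under 0.05, beside 14.8% of all genes, and 0 were called. Hsp90aa1, the inducible cytosolic HSP90, had a normalized CPM of 69.3, 189.7 and 611 (lowest, median and highest) in SAL-SAL and 19.7, 104 and 257 in SAL-LPS (-1.02 ± 0.39, adjusted p = 0.235). The co-chaperone Dnajb1 was at 6.53, 10.4 and 25.03 in SAL-SAL and 4.24, 7.10 and 13.9 in SAL-LPS (-0.60 ± 0.26, adjusted p = 0.351). The detected members varied together between striatal libraries, so these signs are not independent. Their levels also went with the size of the library: across the 54 striatal libraries, Spearman's rho with the total count was -0.68 for Hsp90aa1, -0.54 for Hspa8 and -0.54 for Hspa5. The total counts had a median of 10930689 (6658372 to 26176775) in SAL-SAL and 12141227 (6467848 to 76678084) in SAL-LPS, with ranges in parentheses. The summed thalamus markers were at 2586 (697 to 5587) normalized CPM in SAL-SAL and 4133 (444 to 6583) in SAL-LPS, and 0 of these 6 genes had an unadjusted p under 0.05. Of 6 oligodendrocyte markers 3 were lower in SAL-LPS at that level, with sums of 280.5 (72.3 to 2969) and 212 (95.1 to 792). The part of the total counts and of these markers in the differences was not tested.

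The ER chaperones were not called after LPS in any region. Hspa5 in hypothalamus was at 30.1, 118 and 211 normalized CPM (lowest, median and highest) in SAL-SAL and 0, 110.1 and 196 in SAL-LPS, where the 0 is the library of 7673 counts (0.15 ± 0.22 on the log2 scale, adjusted p = 0.885). Hsp90b1 differed by -0.01 ± 0.17 there, with a 95% interval from -0.35 to 0.32. In the hippocampus of morphine-exposed mice, Hsp90b1 was at 27.6, 38.1 and 86.7 in MOR-SAL and 13.9, 32.8 and 56.1 in MOR-LPS (-0.47 ± 0.18, adjusted p = 0.190). The cytosolic Hsp90aa1 was there at 63.2, 172 and 652 in MOR-SAL and 67.3, 137 and 388 in MOR-LPS (-0.65 ± 0.26, adjusted p = 0.207). Its log2 fold change was -0.26 without litter 7.

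The second question was whether perinatal morphine left a difference in adults. No member was called in MOR-SAL against SAL-SAL, beside 1.44%, 0%, 0% and 0% of all genes called in hypothalamus, hippocampus, prefrontal cortex and striatum, nor in MOR-LPS against SAL-LPS, beside 1.03%, 2.73%, 0.0046% and 0%. The difference between the LPS responses was not called for any member either, beside 3.8%, 2.35%, 1.78% and 0.00854%. Hypothalamic Hspa8 was at 106, 519 and 798 normalized CPM (lowest, median and highest) in SAL-SAL and 351, 677 and 827 in MOR-SAL (0.49 ± 0.22 on the log2 scale, adjusted p = 0.220). Hypothalamic Hspa5 was at 30.1, 118 and 211 in SAL-SAL and 104, 149 and 176 in MOR-SAL (0.40 ± 0.21, adjusted p = 0.309). For both genes the lowest SAL-SAL library was library 10-3, below every MOR-SAL library, and without litter 10 the log2 difference of Hspa8 was 0.28 (adjusted p = 0.582). In the same comparison 3 of 6 thalamus, 2 of 6 choroid plexus and 1 of 6 oligodendrocyte markers were called lower, and 6 of 6 oligodendrocyte markers were lower at an unadjusted p under 0.05. The summed thalamus markers had a median of 381 (133 to 3099) normalized CPM in SAL-SAL and 286 (151 to 941) in MOR-SAL, with ranges in parentheses, and the part of these markers in the differences was not tested. In striatum the log2 differences were -0.70 ± 0.48 for Hspa8 and -0.79 ± 0.45 for Hspa5. Across the 6 detected members, the log2 fold changes of MOR-LPS against SAL-LPS lay between -0.46 (Hspa8 in prefrontal cortex, 95% interval -1.05 to 0.13) and 0.51 (Hspa8 in hippocampus, 95% interval 0.01 to 1.01).

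The stress-inducible genes Hspa1a, Hspa1b and Hspb1 gave few counts. Hspa1a was at 0 in 16 of 51 hypothalamic, 27 of 55 hippocampal, 39 of 48 prefrontal and 32 of 54 striatal libraries, and Hspa1b in 39, 38, 38 and 40 of the same libraries. The highest Hspa1a level, 52.0 normalized CPM in hypothalamic SAL-SAL library 4-3, rests on 12 counts in a library of 160755, and the next highest of the 51 libraries was 4.64. Without the low-depth libraries the hypothalamic log2 difference of Hspa1a for SAL-LPS against SAL-SAL changed sign, from -2.34 ± 1.13 to 0.19. The higher Hspa1a level in hypothalamus than in striatum was then no longer called (3.82 ± 1.27, adjusted p = 0.0146, against 1.31, adjusted p = 0.322).

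**Figure D3:**
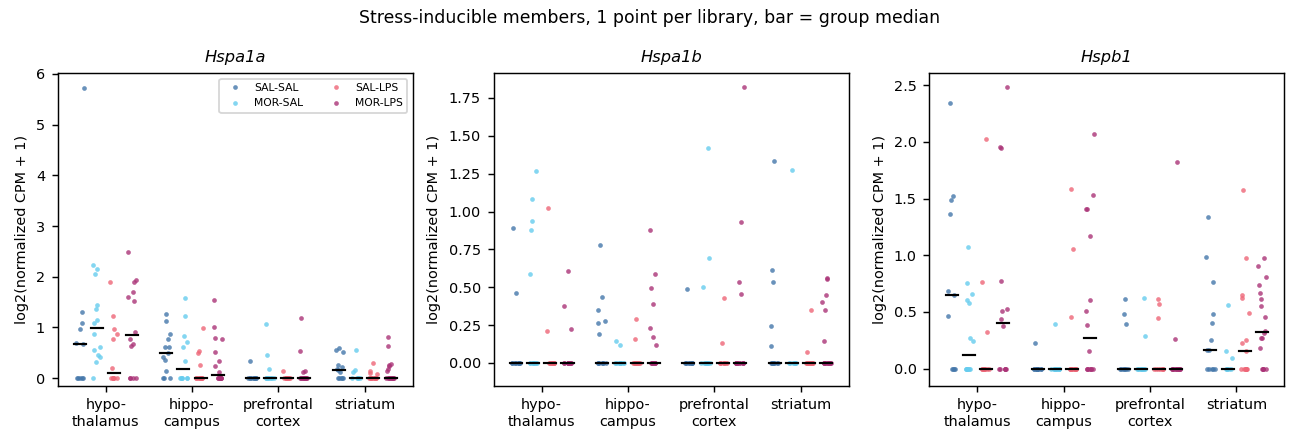
Levels of Hspa1a, Hspa1b and Hspb1, as log2(normalized CPM + 1) on the vertical axis, by region and group, with 1 point per library and a bar at the group median. Many points are at 0, and the single hypothalamic Hspa1a point far above the rest is the library with 12 counts.

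Hspb1 in hippocampus was at 0 in 12 of 13 SAL-SAL and 11 of 12 MOR-SAL libraries, and in 11 of 14 SAL-LPS and 7 of 16 MOR-LPS libraries. The highest counts were 1, 3, 19 and 19 in the same order. Neither LPS comparison was called (adjusted p = 0.0607 for SAL-LPS against SAL-SAL and 0.0955 for MOR-LPS against MOR-SAL), and no fold is given because nearly all control libraries were at 0. In striatum, where Hspb1 was at 0 in 22 of 54 libraries, the medians were 0.122, 0, 0.115 and 0.252 normalized CPM in the same order of groups. Hspa1b in hippocampus was at 0 in 7 of 13 SAL-SAL, 10 of 12 MOR-SAL, 12 of 14 SAL-LPS and 9 of 16 MOR-LPS libraries, and the difference between its LPS responses had an adjusted p of 0.0522. A count of 0 allows up to 3 counts in that library, so differences of a few counts were not detectable at this depth.

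Sex gave the only member called in the fit that averaged over the regions. Dnajb1 was lower in females than in males: its medians in females and males were 22.0 and 30.8 normalized CPM in hypothalamus, 10.8 and 13.9 in hippocampus, 15.4 and 22.2 in prefrontal cortex, and 7.55 and 7.65 in striatum. Below the male median were 23 of 26 female libraries in hypothalamus, 22 of 28 in hippocampus, 20 of 26 in prefrontal cortex and 14 of 27 in striatum. Averaged over the regions in 1 limma-voom fit with a correlation within animals, the log2 difference was -0.35 ± 0.0963 (SE, adjusted p = 0.0142), in a comparison where 4.8% of all genes were called. It stayed called without the low-depth libraries (adjusted p = 0.0126), without the libraries at odds with their labelled sex (-0.34, adjusted p = 0.0213) and with a correlation within litters in place of animals (adjusted p = 0.00707). This fit was added after the data were seen. Within single regions Dnajb1 was not called by sex (hypothalamus -0.49 ± 0.16, adjusted p = 0.0700, hippocampus -0.32 ± 0.17, prefrontal cortex -0.39 ± 0.24, striatum -0.18 ± 0.19), nor was any other member, beside 3.45%, 2.51%, 0.709% and 0.841% of all genes. All but 1 litter held animals of a single sex, so sex is compared between litters.

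Hsp90aa1 differed by -0.34 ± 0.12 (adjusted p = 0.0596) in the same fit. It was called with the correlation within litters (adjusted p = 0.0371) but not in the fit as given, nor without the libraries at odds with their labelled sex (adjusted p = 0.0530). Its medians in females and males were 328 and 393 normalized CPM in hypothalamus, 136 and 166 in hippocampus, 166 and 248 in prefrontal cortex, and 115 and 125 in striatum. Glial markers moved with sex in the hypothalamus, where 4 of 6 astrocyte, 5 of 6 oligodendrocyte and 2 of 6 microglia markers were called higher in females. Of 6 neuron markers there, 3 were lower in females at an unadjusted p under 0.05, of which 0 passed the adjusted test (median log2 difference -0.26), and in hippocampus 2 were lower and 1 was called (median -0.20). The oligodendrocyte sum had a median of 302 (63.7 to 5714) in females and 219.8 (51.9 to 1179) in males, with ranges in parentheses, and the part of these markers in the differences was not tested.

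**Figure D4:**
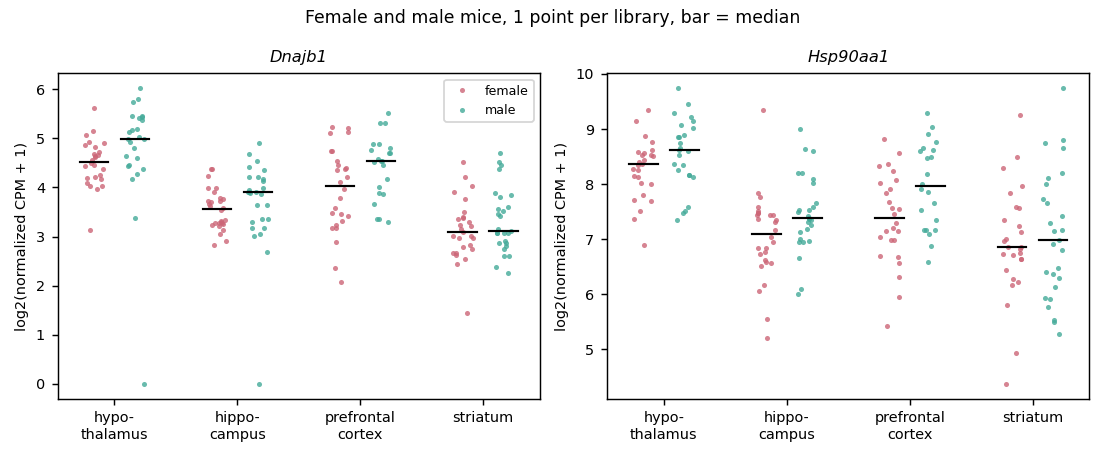
Levels of Dnajb1 and Hsp90aa1 in female and male mice, as log2(normalized CPM + 1) on the vertical axis, by region, with all 4 groups together, 1 point per library placed by its labelled sex and a bar at the median. Female medians are below male medians in all 4 regions for both genes, and the points overlap in every region.

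Other genes of the same systems were read from lists of 42 cytosolic heat shock genes and co-chaperones, 30 ER chaperones and unfolded protein response genes, and 10 mitochondrial chaperones. In SAL-LPS against SAL-SAL, 1 of 42 cytosolic genes tested was called in hypothalamus, beside 0.246% of all genes, and none in hippocampus, prefrontal cortex and striatum, where 2.55%, 0% and 0.0128% of all genes were called, and no ER or mitochondrial gene was called in any region. The called gene was Hspa12a, a distant HSP70 relative, at 76.5 ± 38.4 normalized CPM (SD, n = 12) in SAL-LPS and 161 ± 86.1 (n = 11) in SAL-SAL (-0.95 ± 0.22, edgeR adjusted p = 0.0407). It was also lower in MOR-SAL (89.9 ± 17.0, n = 14) than in SAL-SAL (-0.83 ± 0.20, edgeR adjusted p = 0.0230), and its LPS responses differed by 1.06 ± 0.29 (adjusted p = 0.0230), in comparisons that called 1.44% and 3.8% of all genes. These comparisons share the SAL-SAL libraries. Against them some thalamus and choroid plexus markers were called lower too, with 1 and 1 of 6 called in SAL-LPS and 3 and 2 of 6 called in MOR-SAL, and their part in the Hspa12a differences was not tested. In striatum, 16 of 41 cytosolic genes tested were lower at an unadjusted p under 0.05 in SAL-LPS against SAL-SAL, beside 11.7% of all genes, and none was called. Whether they follow library size, as the levels of Hsp90aa1 and Hspa8 did there, was not tested. Their median log2 fold change was -0.38, beside 0.0059 over all genes.

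In the morphine-exposed mice after LPS, 1 of 28 ER genes tested was called lower in hypothalamus, beside 6.27% of all genes called in either direction. It was the neurotrophic factor Cdnf. It was at 0.0106 ± 0.0396 normalized CPM in MOR-LPS and 0.386 ± 0.719 in MOR-SAL (SD, n = 14 each, edgeR adjusted p = 0.0335), close to 0 in most libraries. In striatum 1 of 41 cytosolic genes was called lower, beside 1.39% of all genes. It was the HSP40 family member Dnajb5, at 32.1 ± 8.67 (n = 18) in MOR-LPS and 50.4 ± 14.0 (n = 8) in MOR-SAL (-0.65 ± 0.17, edgeR adjusted p = 0.0404). In MOR-LPS against SAL-LPS, where 2.73% of all genes were called in hippocampus, the HSP40 family member Dnajb2 was higher there, at 25.7 ± 12.3 (n = 16) and 13.3 ± 4.72 (n = 14) normalized CPM (edgeR adjusted p = 0.0328). So was Trap1, the mitochondrial HSP90, at 53.4 ± 10.6 and 39.0 ± 9.18 (adjusted p = 0.0438). By sex, 3 genes of the chaperone lists were called, named here after their values were seen. The chaperonin subunit Cct2 was lower in females in hypothalamus (-0.43 ± 0.13, edgeR adjusted p = 0.0460), beside 3.45% of all genes, and DESeq2 called 0 of the 42 cytosolic genes there. Hspa14, an HSP70 relative, was lower in females in striatum (-0.41 ± 0.0865, edgeR adjusted p = 0.0143), beside 0.841% of all genes. Xbp1, a transcription factor of the unfolded protein response, was higher in females in hippocampus (0.59 ± 0.16, edgeR adjusted p = 0.0359), beside 2.51% of all genes.

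The chaperones can be set beside genes known to respond to glucocorticoids, whose receptor is an HSP90 client. Of 13 such genes, 9 were called higher in hypothalamus in MOR-LPS against MOR-SAL, beside 6.27% of all genes. In this comparison 4 of 6 astrocyte, 4 of 6 oligodendrocyte and 2 of 6 microglia markers were called higher as well, and their part in the count was not tested. The 4 glucocorticoid genes with the smallest adjusted p were Klf9, Zbtb16, Cdkn1a and Nfkbia, given here in MOR-LPS and then in MOR-SAL. The transcription factors among them were Klf9, at 81.5 ± 48.0 and 30.2 ± 9.35 normalized CPM (SD, n = 14 each, 1.43 ± 0.22, edgeR adjusted p = 7.64e-05), and Zbtb16, at 76.2 ± 64.0 and 19.3 ± 14.6 (2.04 ± 0.34, adjusted p = 0.000176). Cdkn1a, an inhibitor of the cell cycle, was at 33.1 ± 41.6 and 5.10 ± 2.92 (2.69 ± 0.45, adjusted p = 0.000183), and Nfkbia, an inhibitor of NF-kappaB, was at 30.2 ± 21.5 and 10.2 ± 3.53 (1.54 ± 0.31, adjusted p = 0.00191). The difference between the responses to LPS was called for 4 of the 13 in hypothalamus, beside 3.8% of all genes. In this difference 2 of 6 astrocyte, 4 of 6 oligodendrocyte, 1 of 6 microglia, 3 of 6 thalamus and 1 of 6 choroid plexus markers were called higher too, and their part was not tested. The glucocorticoid genes were Klf9 (1.61 ± 0.33, edgeR adjusted p = 0.00609), Ddit4, an inhibitor of mTOR signalling (2.12 ± 0.62, adjusted p = 0.0346), Nfkbia (1.55 ± 0.46, adjusted p = 0.0364) and Zbtb16 (1.66 ± 0.49, adjusted p = 0.0393).

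In MOR-LPS against MOR-SAL in striatum 3 of 13 glucocorticoid genes were called higher, beside 1.39% of all genes. They were, in MOR-LPS (n = 18) and MOR-SAL (n = 8), Cdkn1a, at 29.7 ± 30.7 and 4.54 ± 5.06 normalized CPM (2.67 ± 0.61, edgeR adjusted p = 0.0198), Ddit4, at 6.17 ± 5.25 and 1.63 ± 1.15 (1.89 ± 0.46, adjusted p = 0.0269), and Fkbp5, an HSP90 co-chaperone, at 127 ± 51.0 and 70.9 ± 20.0 (0.84 ± 0.20, edgeR adjusted p = 0.0259). There 3 of 5 astrocyte markers tested and 1 of 5 microglia markers were called higher too. The astrocyte sum had a median of 24.8 (16.48 to 43.4) normalized CPM in MOR-SAL and 44.6 (21.1 to 335) in MOR-LPS, with ranges in parentheses, and its part was not tested. In hippocampus and prefrontal cortex 0 of the 13 were called in this comparison, with 4 and 3 higher at an unadjusted p under 0.05. In SAL-LPS against SAL-SAL, 0 were called in hypothalamus and 1 in hippocampus, beside 0.246% and 2.55% of all genes. The latter was Cdkn1a, at 15.4 ± 8.55 (n = 14) and 4.05 ± 3.07 (n = 13, edgeR adjusted p = 0.0314). In MOR-LPS against SAL-LPS in hippocampus 1 of the 13 was called higher, beside 2.73% of all genes. It was Tsc22d3, a leucine zipper protein, at 23.7 ± 12.7 and 12.0 ± 5.61 (0.97 ± 0.26, edgeR adjusted p = 0.0334). Of 12 immediate early genes, 1 was called in hypothalamus in MOR-LPS against MOR-SAL, beside 6.27% of all genes. The part of the glial markers called higher in this comparison was not tested. The gene was Arc, at 63.7 ± 107 and 20.3 ± 7.19 (1.68 ± 0.44, edgeR adjusted p = 0.0142).

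The 6 detected members varied together from library to library, most of all in striatum. Pearson's r of log2(normalized CPM + 1) was computed over the 200 libraries that were not of low depth, region by region with all groups together, as a description. In striatum r lay between 0.59 (Dnajb1 and Hsp90aa1) and 0.92 (Hspa5 and Hspa8). In hypothalamus the range was 0.26 to 0.74, with 0.26 to 0.40 for the pairs of Hsph1, in hippocampus 0.22 to 0.85 and in prefrontal cortex -0.17 to 0.87. The points share their region's processing and differ in depth.

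**Figure D5:**
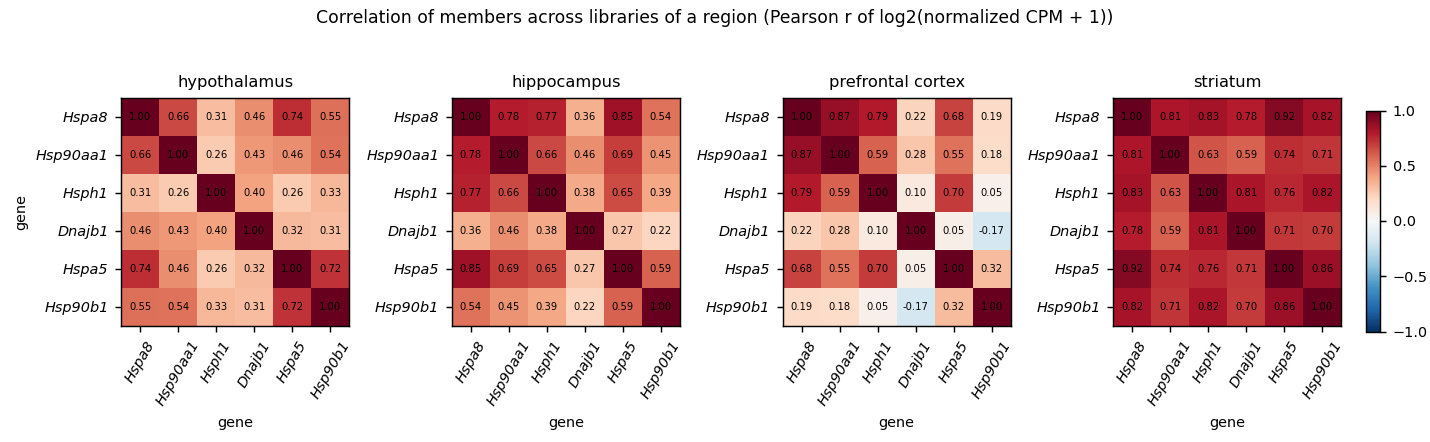
Pearson's r between the 6 detected members across the libraries of each region, with genes on both axes and the color giving r from -1 to 1. The striatal matrix is high throughout (0.59 to 0.92), and the hypothalamic pairs of Hsph1 range from 0.26 to 0.40.

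The spread between libraries also differed by region. In striatum the residual SD of log2 levels, with group and sex fitted, was 1.05 for Hspa8 and 1.05 for Hsp90aa1, with 95.3% of 12975 genes below each. For Hspa5 it was 0.98, with 93.2% of genes below. In hypothalamus the residual SD of Hsph1 was 0.24, with 1.45% of genes below it, and that of Hspa8 was 0.60. Single libraries were high for many members at once: hippocampal SAL-SAL library 1-1 and striatal SAL-SAL library 5-3 were among the 3 highest of their region for all 6.

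The genes most like each member, by the mean of r over the 4 regions among 12975 genes, can be named without a test. For Hsp90aa1 they included its paralog Hsp90ab1 (0.88) and the proteasome subunit Psmc5 (0.84). For Hspa8 they were tubulin Tuba1a (0.89), actin Actg1 (0.87) and the mitochondrial ADP/ATP carrier Slc25a4 (0.87), and for Hspa5 the peroxiredoxin Prdx1 (0.81), Hspa8 (0.80) and Itm2b (0.79). Hsph1 was most like the chaperonin subunit Cct7 (0.69), Hspa8 (0.68) and Tuba1a (0.66). Lower values were found for Dnajb1, with the clathrin adaptor subunit Ap2m1 (0.64), Apbb1 (0.58) and Cend1 (0.58), and for Hsp90b1, with the vacuolar ATPase subunit Atp6v1g1 (0.66), Nicn1 (0.66) and Pdha1 (0.63). The median r over all genes was between -0.0504 and 0.0486 for the 6 members.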

How the data were processed

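The authors deposited raw counts per gene for each region and a table of CPM values made from them. By their methods and processing notes, reads were trimmed with Trim Galore 0.6.7, aligned to mm10 with STAR 2.7.10a, counted from unique reads over GENCODE genes and checked with HTSeq 0.12.4, and DESeq2 1.40.2 was their test. The deposited CPM tables leave out 37 mitochondrial genes and served as an alternative only. All columns were matched to a sample (0 were not).

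Genes with a total count above 10 in a region were fitted with edgeR 4.0.16 in R 4.3.3 (TMM scaling, quasi-likelihood, the 4 groups and sex in 1 model per region). P-values were adjusted by Benjamini-Hochberg over all genes tested, and a gene was called at an adjusted p under 0.05. Levels are TMM-normalized CPM, and the pseudocount on the log2 scale was 1. The fit over all regions used limma 3.58.1 (voom), with a correlation of 0.0146 within animals, and alternatives used DESeq2 1.42.0. Replicate labels name litter and individual, as the study's sample sheet defines them, so libraries of 2 regions with the same label come from 1 animal. The animal block of the region tests rests on that. P-values within a region measure the spread between libraries, several of which share a litter. No 2 libraries were identical.

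The members and gene lists were chosen with earlier results of these data known. All 9 members are named, with list genes called in a treatment comparison, at most 4 per list and comparison by smallest adjusted p, and the 3 genes most like each detected member among genes of at least 1 CPM on average. 1 such gene is not reported here. The fit over all regions, the removal of libraries at odds with their labelled sex and the other added alternatives were chosen after seeing the data. Counts were simulated for SAL-LPS against SAL-SAL in hypothalamus, with 200 of 28828 genes changed by 2 on the log2 scale. Of the changed genes edgeR recovered 83.5%, and it also called 151 unchanged genes. DESeq2 recovered 86.5% and called 18 unchanged genes. In this simulation edgeR thus called more unchanged genes than an adjusted p under 0.05 allows for. The list genes named above rest on edgeR calls, and DESeq2 was set beside them only for Cct2. Gene positions and shared windows came from GENCODE (GRCm38), promoters from RefSeq. The promoters of Hspa8 and Hsp90aa1 were not analysed here. Floors for counts of 0 cover counting error only.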

Additional observations from a re-analysis of the deposited data

Results flagged for a closer look

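In groups of 4 to 10 libraries, 13 of 27 tests found a library far from the others of its group by Dixon's test. For normally distributed values chance gives this in about 1 in 20 groups, a rate that does not apply to 7 of the 13, which are Hspa1a, Hspa1b or Hspb1 in groups mostly at or near 0, and several of the others are members that vary together in 1 library. All values are normalized CPM. In the striatum of MOR-SAL mice (8 libraries), library 17-2 stood apart for Hsp90aa1 at 852 (next highest 313), for Hspa8 at 584 (next 174), for Hspa5 at 91.5 (next 32.3) and for Hspb1 at 0.475 (next 0.112, on 4 counts). In the same group Hspa1a was at 0.472 in library 15-2 (next 0.119) and Hspa1b at 1.42 in library 12-1, on 17 counts, with 0 in the other libraries. In the prefrontal cortex of SAL-LPS mice (10 libraries), library 1-4 stood apart for Hspa8 at 1050 (next 495) and Hsph1 at 442 (next 256), and library 1-0 for Hspa5 at 212 (next 83.0). Hspa1a there was at 0.0961 in library 9-1, on 1 count, with 0 elsewhere, and Hspa1b at 0.347 in library 4-0, on 4 counts (next 0.0961). In the prefrontal cortex of SAL-SAL mice, Hspa1a was at 0.263 in library 4-3 and Hspa1b at 0.401 in library 1-3, on 4 and 3 counts, with 0 in the other libraries for both genes.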

How the results depend on the processing

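Each count of called members, each difference within a region with an unadjusted p under 0.05 and each difference between regions was recomputed under other scalings, filters, tests and sets of libraries. Of these values, 691 counts stayed within 1.5 times the value given and 19 did not, and of the single-gene differences 1092 kept their direction and side of the threshold, 22 passed it anew, 8 no longer passed it and 11 changed sign. The cause was not tested unless the alternative removed libraries or terms by construction. Within regions, DESeq2 called 1 member for SAL-LPS minus SAL-SAL in hypothalamus (Hsph1), and 1 was called for MOR-LPS minus MOR-SAL there without the low-depth libraries (Hsph1). In hippocampus 1 was called for SAL-LPS minus SAL-SAL with no sex term (Hspb1, adjusted p = 0.0435) and 1 for the difference between the LPS responses with library size as the only scaling (Hspa1b, adjusted p = 0.0386). Leaving out each litter gave 0 to 1 called members in 4 comparisons: MOR-LPS minus MOR-SAL in hypothalamus (1 without litter 1 or 4), the difference between the LPS responses in hypothalamus (1 without litter 1, Hspb1, adjusted p = 0.0159), SAL-LPS minus SAL-SAL in hippocampus (1 without litter 9, Hspb1, adjusted p = 0.0474) and the difference between the LPS responses in hippocampus (1 without litter 2, 7, 8, 12 or 14, each time Hspa1b). The hypothalamic Hsph1 difference for SAL-LPS minus SAL-SAL was -0.34 without litter 4 (adjusted p = 0.228), and -0.47 with litter as a block (adjusted p = 0.723).

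Hspa1a in hypothalamus, SAL-LPS minus SAL-SAL, changed sign without the low-depth libraries (0.19), in males alone (0.35) and with litter as a block (0.015), and ranged from -2.84 to 0.79 when each litter was left out, with the positive value (0.79) without litter 4. Between regions, DESeq2 called 7 members for hypothalamus minus hippocampus (Dnajb1, Hsp90aa1, Hsp90b1, Hspa1a, Hspa5, Hspb1 and Hsph1). For hypothalamus minus prefrontal cortex it called 4 (Hsp90b1, Hspa1a, Hspa5 and Hsph1). The sign changed for Hspa1a, hypothalamus minus hippocampus, without low-depth libraries (-0.17), Hsp90aa1, hypothalamus minus prefrontal cortex, by DESeq2 (0.029) and with its size factors (0.022), and Hspa8, hippocampus minus striatum, by the same alternatives (0.0056 and 0.0056). With the animal as a replicate block, 1 member was called for hippocampus minus prefrontal cortex, 0 for hippocampus minus striatum and 0 for prefrontal cortex minus striatum, and the sign changed for Hspa5 (0.13) and Hspa8 (0.094) in hippocampus minus striatum. In the fit over all regions, 2 members were called by sex with a correlation within litters. Depth limits Hspa1a, Hspa1b and Hspb1, whose levels rest on a few counts per library.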
